A study of Danio rerio with 16 samples.

Results

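At 14 hours post fertilization (hpf), when the zebrafish body axis is being divided into somites, embryos that carried an antisense oligonucleotide against the retrovirus BHIKHARI were compared with embryos that carried a scrambled oligonucleotide. The comparison rests on 4 of the 16 libraries of the series, 2 labelled Control and 2 labelled Knockdown at 14hpf, taken by their labels alone, and it was read across all genes and repeat families of the count table. The table lists 32520 genes and 1036 repeat families, of which 16894 genes and 862 families had enough counts to be tested. All embryos were wild type (genotype WT) zebrafish, Danio rerio. They were injected at 0 hpf with either Bik-1 LNA (the knockdown) or Scrambled LNA (the control). Each library was made from polyadenylated RNA of whole embryos with a directional method. The other 12 libraries are the same pairs of groups at 8, 11 and 18 hpf and served here to estimate the spread between replicates, to place the 14 hpf libraries in developmental time, and to show where 14 hpf differed. The labels number the replicates 1 and 2 without saying whether they are different clutches or injections, so the p-values measure the spread between these libraries, which may be technical. They also do not say how many embryos were pooled.

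An endogenous retrovirus is the remnant of a retroviral infection of the germ line that is inherited with the genome. Its copies consist of an internal part, with the coding sequence, between a pair of long terminal repeats (LTRs), which hold the promoter. BHIKHARI of zebrafish is known for its expression in the mesendoderm of the early embryo in response to Nodal signals, and its RNA declines after gastrulation. A locked nucleic acid (LNA) is a short antisense oligonucleotide whose stiffened sugars bind RNA tightly. At the stage studied here the eye vesicles grow out of the forebrain, the first muscle fibres form in the somites, and the blood and vessel precursors assemble.

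The 14 hpf libraries held 5825295 and 6496272 counts in the controls and 4399855 and 5468473 counts in the knockdown, replicates 1 and 2 in that order, which is also the order of every pair of values below. Knockdown replicate 1 was the smallest library of the series, whose largest had 7694887 counts. Repeat families took 8.51% and 7.88% of the control counts and 8.15% and 6.67% of the knockdown counts, and these ranges overlap. The replicates of a group differed by more than sampling noise, at a ratio of chi-square to degrees of freedom of 3.89 for controls and 5.03 for knockdown, so each was kept as a separate sample. On the log2 scale the control libraries stood 0.497 apart and the knockdown libraries 0.572 apart (root mean square over features), against 0.564 to 0.65 between libraries of different groups. The embryos held RNA of the eye and forebrain, hindbrain, neurons, neural crest, somites and muscle, notochord, blood, endothelium, epidermis, hatching gland, germ cells and yolk syncytial layer, by a marker of each. Of the endoderm markers FOXA2 was present and SOX17 was near 0. In counts-per-million (CPM), FOXA2 had 20.1 to 33.0 and SOX17 no more than 0.346.

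The LTRs of BHIKHARI fell to 24.4% of their control level, and they were the single feature to pass the test at 14 hpf. Scaled to CPM by TMM, the family BHIKHARI_LTR stood at 214 and 216 CPM in the controls and at 51.5 and 53.5 CPM in the knockdown. The groups were far apart and their replicates close together. The log2 fold change, knockdown minus control here and below, was -2.03 with a standard error (SE) of 0.14, and the adjusted p was 2.1e-06 by edgeR's quasi-likelihood test, with Benjamini-Hochberg adjustment over all 17756 features. No source used here states where in the retrovirus the LNA binds. The fold change at 14 hpf was compared with the mean of the other times by edgeR, and the difference did not pass (unadjusted p = 0.115), where it was -1.98 at 8 hpf, -1.80 at 11 hpf and -1.52 at 18 hpf.

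The internal part of the retrovirus, counted as BHIKHARI_I-int, was at 96.0 and 89.5 CPM in the controls and at 33.6 and 33.9 CPM in the knockdown. Here too neither knockdown library came near a control. Its log2 fold change was -1.46 (SE 0.39), with an adjusted p of 0.66 when all 16 libraries gave the spread. It passed when the 14 hpf groups were fitted alone (adjusted p = 0.00059) and when either knockdown library of 11 hpf was left out (adjusted p = 0.025 each). Over all alternatives its adjusted p ran from 1.2e-18, without a filter on low counts, to 1.

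Among the 8 related families, numbered BHIKHARI-2 through BHIKHARI-5, 4 had both knockdown libraries below both controls, 1 had both above, and 3 overlapped; among all families the 2 shares were 27.5% below and 7.77% above. The lowest was BHIKHARI-5-LTR_DR, at 181 and 234 CPM in the controls and 109 and 115 CPM in the knockdown (log2 fold change -0.89, SE 0.41). It did not pass with all libraries (adjusted p = 0.88) and did with the 14 hpf groups alone. The LTRs of BHIKHARI-2 were at 306 and 319 CPM in the controls and 229 and 254 CPM in the knockdown. The internal part of BHIKHARI-3 stood at 34.1 and 21.5 CPM against 74.5 and 32.6 CPM in the knockdown, and knockdown replicate 1 alone held the high value. No source used here states how the authors' counting divided reads among related families, so values of families that resemble each other are uncertain.

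**Figure D1:**
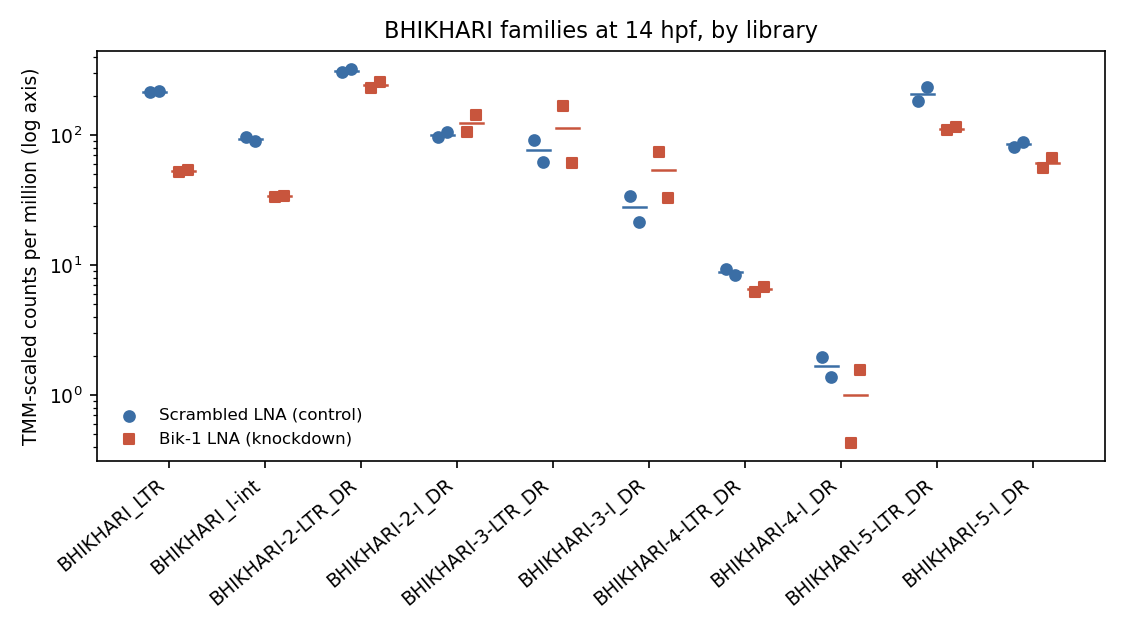
TMM-scaled CPM of the 10 BHIKHARI families in each 14 hpf library, on a log axis; points are libraries (circles for the 2 controls, squares for the 2 knockdown libraries) and short lines are group means. BHIKHARI_LTR and BHIKHARI_I-int are separated by a wide gap, with knockdown libraries at 51.5 and 53.5 against 214 and 216 for the LTRs, while the BHIKHARI-3 and BHIKHARI-4 families include overlapping groups.

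Repeat families as a whole lay slightly lower in the knockdown. BHIKHARI_LTR was the 1 of 862 families called (0.116%). At an unadjusted p under 0.05 by edgeR there were 33 families (3.83%), 27 lower (3.13%) and 6 higher (0.696%). The shares of genes were 3.43% lower and 2.24% higher. The log2 fold change was below 0 in 591 families (68.6%), against 49.0% of genes, and the median was -0.107 for families and 0.006 for genes. The difference was spread over the classes: 288 of 402 DNA transposon families, 234 of 353 LTR families and 51 of 78 LINE families lay below 0. The share of all counts overlapped between the groups for DNA transposons, at 3.75% and 3.39% in the controls and 3.69% and 3.29% in the knockdown. It also overlapped for LINEs, at 0.294% and 0.271% against 0.284% and 0.264%. For LTR families, BHIKHARI included, it was 3.97% and 3.78% against 3.68% and 2.66%, and only knockdown replicate 2 lay far below the controls. The LTR families without a named superfamily, among them BHIKHARI, took 3.09% and 2.89% against 2.80% and 1.82%. BHIKHARI_LTR, at 214 and 216 CPM against 51.5 and 53.5 CPM, was a small part of that share. Among LTR elements the median was -0.17 for 219 Gypsy families, -0.24 for 26 ERV1 families and -0.01 for 46 Pao families. Among DNA transposons 43 of 56 hAT families were below 0.

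The other families with the lowest p in each direction were LTR retrotransposons. Gypsy94-LTR_DR had 14.9 and 17.2 CPM in the controls and 6.68 and 5.89 CPM in the knockdown (log2 fold change -1.36, SE 0.36). The ERV3 repeat ERV3_DR_LTR had 22.5 and 24.0 CPM against 14.0 and 11.4 CPM (-0.88, SE 0.23), and Gypsy117-LTR_DR at least 22.5 CPM against no more than 15.3 CPM (-0.79, SE 0.21). The Pao element CATCH2I_DR went the other way, from 27.9 and 25.1 to 42.2 and 36.0 CPM (0.56, SE 0.21). In these 4 the groups did not overlap, and none passed with all 16 libraries (adjusted p from 0.57 to 0.83). With the 14 hpf groups alone 5 of 797 families were called, all lower (0.627%), and they were both BHIKHARI parts, BHIKHARI-5-LTR_DR, Gypsy94-LTR_DR and ERV1-N8-LTR_DR.

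No gene passed the test at 14 hpf with all 16 libraries (0 of 16894), while 958 genes (5.67%) had an unadjusted p under 0.05, 580 lower (3.43%) and 378 higher (2.24%). DESeq2 called 10 genes (0.0592%), 8 lower (0.0474%) and 2 higher (0.0118%). With a term for the replicate number within each time, edgeR called 305 genes (1.81%) on the same 16 libraries. Of these 197 were lower (1.17%) and 108 higher (0.639%). The main fit had no such term, since the labels do not say what a replicate number marks. Fitted on the 4 libraries of 14 hpf alone, where the replicates lie closer together than in the series as a whole, edgeR called 55 of 14383 genes (0.382%), 39 lower and 16 higher. That fit has 2 residual degrees of freedom. Its biological coefficient of variation was 0.112, against 0.177 with all libraries, in which replicates of 8 and 11 hpf differed more. Both fits take the fold change from the same 4 libraries, so that all 55 had the same sign in both was fixed in advance. With all libraries 44 of the 55 had an unadjusted p under 0.05. They were chosen on the same fold changes, so this count is no separate test. On simulated data, drawn a single time, that fit made 24 false calls and the fit of all libraries made 8. The simulation used the spread of all 16 libraries, which is wider than that at 14 hpf. It therefore cannot give the share of false calls among the 55 genes. With so few residual degrees of freedom these calls are treated as less certain. These 55 genes are described below as called at 14 hpf alone.

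**Figure D2:**
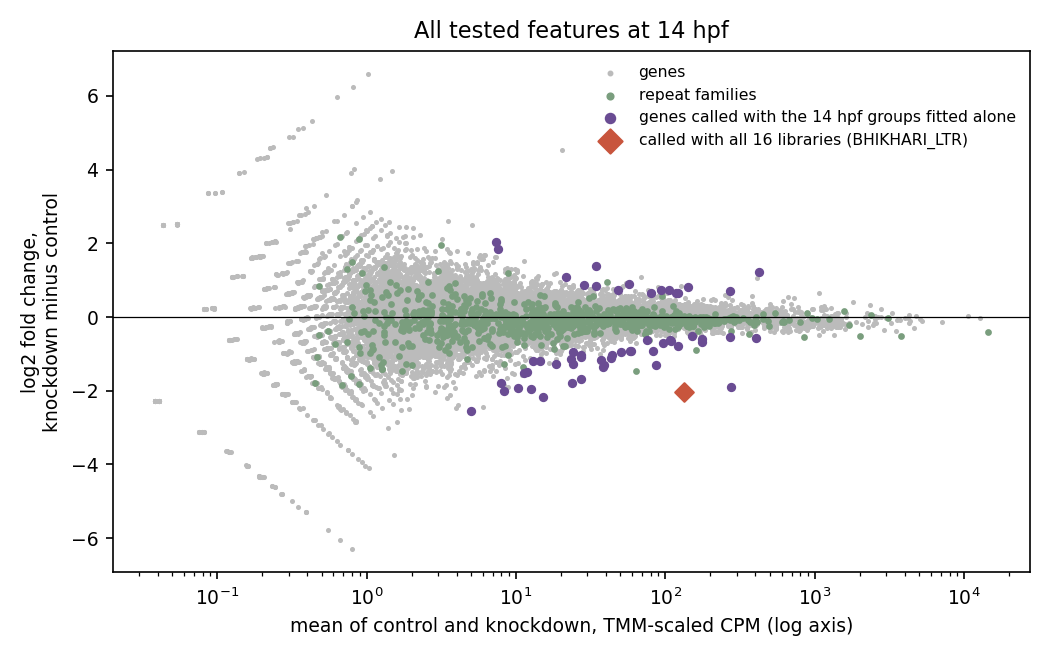
Log2 fold change (knockdown minus control) against mean TMM-scaled CPM on a log axis for all 17756 tested features at 14 hpf. BHIKHARI_LTR, the diamond at -2.03, is the single feature called with all 16 libraries; the 55 genes called with the 14 hpf groups alone include 39 below 0 and 16 above.

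The lower genes with the lowest p came from several kinds of cell biology. The calcium/calmodulin kinase gene camk2d1 was at 17.4 and 22.7 CPM in the controls and 6.03 and 4.33 CPM in the knockdown (log2 fold change -1.96, SE 0.31), and it came nearest to the threshold of all genes (adjusted p = 0.075). A related kinase gene, camk2g2, was at 76.8 and 78.4 CPM against 36.8 and 45.0 CPM. The groups of both genes were clearly separate.

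ADK (ENSDARG00000039429), named for adenosine kinase, stood at 125 and 122 CPM in the controls and 45.2 and 55.3 CPM in the knockdown (-1.30, SE 0.26). PC (ENSDARG00000098766), named for the mitochondrial enzyme pyruvate carboxylase, was at 55.5 and 54.8 CPM against 15.7 and 27.2 CPM (-1.35, SE 0.28). LRBA, which in humans acts in vesicle traffic of immune receptors, was at 38.2 and 45.0 CPM against 11.8 and 13.9 CPM (-1.69, SE 0.36). All 3 were called at 14 hpf alone and none with all libraries (adjusted p = 0.47 each).

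The noncoding RNA malat1, known to stay in the nucleus, was low in both knockdown libraries. It had 493 and 371 CPM in the controls and 135 and 97.5 CPM in the knockdown (-1.90, SE 0.58), so that the groups did not overlap. It was called at 14 hpf alone but not with all libraries (adjusted p = 0.81).

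The genes called lower at 14 hpf alone were also low in the knockdown at the other times, where the fold changes come from other libraries. Of the 39, all 39 were below 0 at 11 hpf and all 39 at 18 hpf, and 35 were below 0 at 8 hpf, against 48.7%, 49.4% and 47.1% of all genes. Their median log2 fold change was -0.96 at 8 hpf, -0.88 at 11 hpf and -0.64 at 18 hpf. At an unadjusted p under 0.05 by edgeR, 22 of the 39 were lower at 8 hpf, 30 at 11 hpf and 15 at 18 hpf, where the shares of all genes were 5.52%, 2.77% and 1.97%. At an adjusted p under 0.05, 4 passed at 8 hpf, where 0.32% of all genes did in that direction. None passed at 11 or 18 hpf, where 0 of all genes did. The p-values at these times take their spread from all 16 libraries, those of 14 hpf included. The genes were chosen on the 14 hpf libraries, so the counts past a p are not independent of that choice.

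LRBA shows the pattern, with log2 fold changes of -1.66 at 8 hpf, -1.66 at 11 hpf and -0.77 at 18 hpf. The splicing-related gene rsrc1 stood at 57.6 and 53.4 CPM against 18.1 and 26.5 CPM at 14 hpf (-1.31), with -2.23, -1.39 and -0.61 at the other times in the same order. Among the 4 exceptions at 8 hpf, rx1, FEZF1 and cldni were near 0 CPM in that stage's controls. The other was COL2A1 (ENSDARG00000011407), at 7.53 and 2.21 CPM in those controls and 8.32 and 4.22 CPM in the knockdown. The 16 genes called higher at 14 hpf alone were less uniform: 11 were above 0 at 8 hpf, 15 at 11 hpf and 15 at 18 hpf, and 1, 1 and 5 of them had an unadjusted p under 0.05 and were higher there (all genes, 3.81%, 1.94% and 2.57%).

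Genes of the eye field and anterior neural plate, the territory that forms the retina and forebrain, had a median below that of all genes. Of the list's 36 tested members 23 were below 0 and 13 above, 18 had both knockdown libraries below both controls and 8 both above, against 21.5% and 21.9% of all genes. At an unadjusted p under 0.05, 12 were lower and 1 was higher, against 3.43% and 2.24% of all genes. This list, like the others below, was written with earlier results of these data known, so such counts are no independent test. The list's share of all counts overlapped between the groups, at 0.15% and 0.13% in the controls and 0.13% and 0.14% in the knockdown. The median log2 fold change over the list was -0.36, against 0.01 for all genes, and it was below 0 in every alternative run. It was -0.19 without control replicate 1, and -0.14 with the 14 hpf groups alone, where fewer members could be tested. In whole embryos, fewer cells of a type and less RNA per cell cannot be told apart.

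The 3 rx genes, retinal homeobox regulators, were low together. The gene rx1 was at 23.8 and 25.7 CPM in the controls and 3.02 and 7.79 CPM in the knockdown (log2 fold change -2.16, SE 0.47). The gene rx2 was at 10.3 and 6.85 CPM against 1.51 and 1.39 CPM (-2.56, SE 0.64). The gene rx3, which in zebrafish is needed for the eye vesicles to form, was at 24.6 and 16.9 CPM against 8.83 and 9.35 CPM (-1.19, SE 0.38). All 3 were lower in both knockdown libraries, with no overlap, and rx1 and rx2 were called at 14 hpf alone.

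SIX3 (ENSDARG00000054879), a homeobox gene of the forebrain and eye field, was at 59.1 and 58.7 CPM in the controls and 26.9 and 30.5 CPM in the knockdown (-1.03, SE 0.30), and was called at 14 hpf alone. The other gene under that symbol (ENSDARG00000058008) had 22.5 and 24.6 CPM against 5.60 and 14.0 CPM. FEZF1, a forebrain zinc finger gene singled out after its values were seen because it was called at 14 hpf alone, had 14.1 and 12.8 CPM against 3.23 and 3.46 CPM (-2.0, SE 0.55). Neither pair of knockdown values reached the controls in any of these 3 genes.

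Not all forebrain genes were low. OTX2, a homeobox gene of the forebrain and midbrain, was at 65.6 and 68.0 CPM in the controls and 103 and 88.3 CPM in the knockdown (0.51, SE 0.12). For both genes listed as PAX6 the groups overlapped, with 85.5 and 78.7 CPM against 76.7 and 89.9 CPM in PAX6 (ENSDARG00000103379) and 66.4 and 52.8 CPM against 66.6 and 59.4 CPM in PAX6 (ENSDARG00000045936). OTX2 was among the genes with the lowest p for a difference between 14 hpf and the mean of the other times (edgeR, unadjusted p = 0.000315, not past the threshold once adjusted). Its fold change was -0.45 at 8 hpf, 0.03 at 11 hpf and 0.00 at 18 hpf.

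The low eye genes did not share a course in normal development. In controls from 11 to 18 hpf, rx1 rose by 5.22 and FEZF1 by 4.46 on the log2 scale, while rx3 fell by 3.76 and SIX3 (ENSDARG00000054879) fell by 1.2. All 4 were lower in the knockdown at 14 hpf.

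**Figure D3:**
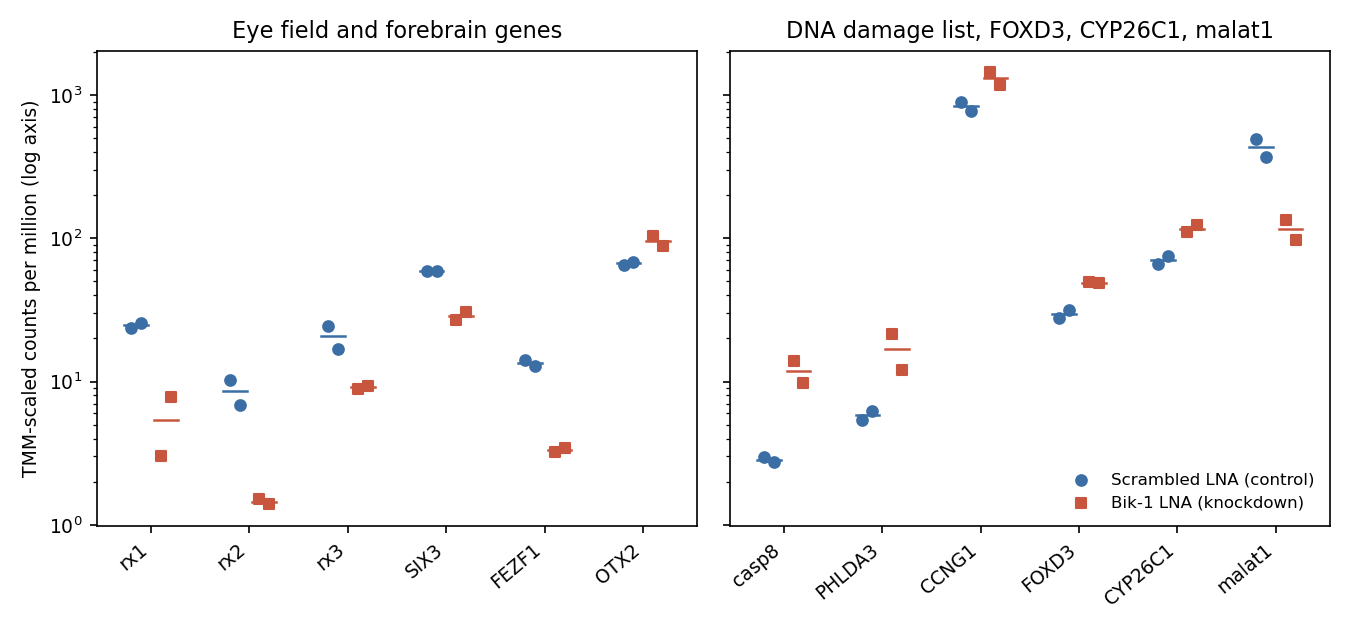
TMM-scaled CPM in each 14 hpf library, on a log axis, of eye field and forebrain genes (left; SIX3 is ENSDARG00000054879) and of genes of the DNA damage and apoptosis list, FOXD3, CYP26C1 and malat1 (right); circles are controls, squares are knockdown libraries and short lines are group means. The rx genes, SIX3, FEZF1 and malat1 are lower in both knockdown libraries and OTX2, casp8, PHLDA3, CCNG1, FOXD3 and CYP26C1 are higher in both.

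Genes of the extracellular matrix were low as a group. Of 59 tested collagens, laminins, fibronectins and nidogens, 28 had both knockdown libraries below both controls and 5 both above, against 21.5% and 21.9% of all genes. At an unadjusted p under 0.05, 13 were lower and 2 higher, where the shares of all genes were 3.43% and 2.24%, and the median log2 fold change was -0.31. The list took 0.42% and 0.40% of counts in the controls and 0.33% and 0.35% in the knockdown.

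The group spanned fibrillar collagens and basement membrane. COL14A1, of a collagen that associates with fibrils, was at 13.5 and 14.5 CPM in the controls and 5.17 and 6.24 CPM in the knockdown (-1.28, SE 0.23, adjusted p = 0.20). COL1A1, of the main fibrillar collagen of skin and bone, was at 5.25 and 5.33 CPM against 1.72 and 1.21 CPM (-1.86, SE 0.52). LAMA5, a laminin chain of basement membranes, was at 118 and 120 CPM against 66.3 and 80.4 CPM (-0.70, SE 0.37), and was called at 14 hpf alone. The groups of these 3 genes lay well apart.

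FN1 (ENSDARG00000019815), named for fibronectin, on which cells migrate and somites form boundaries, was at 209 and 198 CPM against 148 and 140 CPM (-0.50, SE 0.11). LAMB1 (ENSDARG00000101209) was at 293 and 270 CPM against 219 and 198 CPM (-0.43, SE 0.10). AGRN, the gene of the basement membrane proteoglycan agrin and no member of that list, was at 55.5 and 62.4 CPM against 23.0 and 31.5 CPM (-1.10, SE 0.39) and was called at 14 hpf alone. The collagen gene col8a1a of the notochord went the other way, at 78.3 and 80.0 CPM in the controls and 119 and 145 CPM in the knockdown (0.74, SE 0.33), and it too was called at 14 hpf alone.

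Cytosolic ribosomal protein genes lay lower by a small and even amount. The log2 fold change was below 0 in 82 of 83 tested genes, both knockdown libraries lay below both controls in 46, and none lay above, against 49.0%, 21.5% and 21.9% of all genes. The median was -0.23, and 16 were lower at an unadjusted p under 0.05 and none higher, against 3.43% and 2.24% of all genes. Together they took 9.34% and 10.59% of all counts in the controls and 8.22% and 9.29% in the knockdown, so that knockdown replicate 2 came close to control replicate 1. RPS12 had the lowest p, at 1400 and 1760 CPM against 1090 and 1160 CPM (-0.49, SE 0.17). The median was -0.10 without control replicate 2 and -0.14 without knockdown replicate 1.

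Of the translation factors, 55 of 78 were below 0, with a median of -0.07. In 26 both knockdown libraries lay below both controls and in 7 above both. At an unadjusted p under 0.05 by edgeR, 4 were lower and none higher. The shares of all genes were 49.0% below 0, 21.5% and 21.9% without overlap, and 3.43% and 2.24% at that p. Nuclear genes of oxidative phosphorylation (49 of 85 below 0, median -0.03) and proteasome subunits (13 of 39, median 0.06) had medians near that of all genes. Splicing factors had 41 of 77 below 0 and a median of -0.02.

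Muscle genes, which switch on steeply at this stage, were mostly lower in the knockdown. Of 58 tested, 43 were below 0, 27 had both knockdown libraries below both controls and 3 had both above, and the median was -0.28. The shares of all genes were 49.0%, 21.5% and 21.9%. At an unadjusted p under 0.05, 4 were lower and none higher, against 3.43% and 2.24% of all genes. The median was -0.11 without knockdown replicate 1 and -0.16 without control replicate 2. Slow myosin heavy chain, smyhc1, stood at 183 and 178 CPM against 119 and 145 CPM. DES (ENSDARG00000058656), named for the muscle filament protein desmin, stood at 25.6 and 27.8 CPM against 15.9 and 16.5 CPM (-0.72, SE 0.21). MYOD1, a regulator of muscle fate, was at 92.4 and 96.0 CPM against 71.7 and 80.5 CPM. The groups of these genes did not overlap.

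Other tissues whose genes appear at about this time had lower medians with few members past an unadjusted p of 0.05. The median was -0.30 for 22 blood genes and -0.17 for 24 endothelial genes, with none past that level in either list, and the blood median was -0.02 without control replicate 2. Without single libraries the endothelial median ran from -0.22 to -0.07. It was -0.13 for 39 proneural and early neuron genes (2 lower, 1 higher) and -0.13 for 47 Hox genes (4 lower), where 3.43% of all genes were lower and 2.24% higher. The neuron median was -0.22 without knockdown replicate 2, and the Hox median ran from -0.15 to -0.05 without single libraries. Heart, pronephros and epidermis lists had members on both sides. Of 21 heart field genes 11 were below 0 and 10 above (median -0.04). Of these 21, 9 had both knockdown libraries below both controls and 3 both above. Of 21 pronephros genes 12 were below 0 and 9 above, with 4 and 1 by the measure without overlap. The pronephros median was -0.18, and -0.02 without control replicate 2. Of 45 epidermal genes 29 were below 0 and 16 above, with 9 and 11 by the measure without overlap. At an unadjusted p under 0.05 by edgeR, 2 heart, 2 pronephros and 3 epidermal genes were lower. Higher at that p were 3 epidermal genes and none of the other lists. Of all genes, 49.0% were below 0, 21.5% had both knockdown libraries below both controls and 21.9% both above. A low member of each of these 3 lists, at small counts, was among those with the lowest p. POPDC2, of heart and muscle membranes, was at 2.63 and 2.28 CPM against 0.215 and 0.866 CPM. The ATPase subunit gene atp1a1a.4, of pronephros and ionocytes, was at 3.12 and 3.50 CPM against 0.215 and 0.866 CPM (-2.49, SE 0.67). The regulator foxi3a of epidermal ionocytes was at 6.07 and 7 CPM against 2.80 and 2.25 CPM (-1.37, SE 0.41).

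The genes of the DNA damage and apoptosis response were the list with the largest share of higher members at an unadjusted p under 0.05 among those of at least 20 genes. Of 34 tested, 15 had both knockdown libraries above both controls and 5 both below, against 21.9% and 21.5% of all genes. At that p, 7 were higher and 1 was lower, against 2.24% and 3.43% of all genes. The median log2 fold change of the list was 0.21, with 0.14 without knockdown replicate 1 and 0.34 without knockdown replicate 2. Together the list took 0.25% and 0.22% of counts in the controls and 0.34% and 0.29% in the knockdown.

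The initiator caspase gene casp8 was at 2.95 and 2.74 CPM in the controls and 14.0 and 9.70 CPM in the knockdown (2.04, SE 0.43), and was called at 14 hpf alone. CCNG1, a cyclin gene induced by DNA damage, was at 899 and 776 CPM against 1440 and 1180 CPM (0.65, SE 0.18). PHLDA3, which restrains AKT signalling, was at 5.41 and 6.24 CPM against 21.5 and 12 CPM (1.51, SE 0.47). In all 3 genes both knockdown libraries exceeded both controls, and knockdown replicate 1 was the higher of the pair.

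Other members of the list varied. The cell cycle inhibitor cdkn1a had 3.45 and 1.52 CPM against 5.60 and 3.81 CPM, and the ubiquitin ligase gene mdm2 67.3 and 75.6 CPM against 91.1 and 76.7 CPM. Both had narrow gaps between the groups.

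Of the genes that silence transposons and methylate DNA, 32 were tested. They had 10 members below 0, 13 with both knockdown libraries above both controls and 3 with both below, against 49.0%, 21.9% and 21.5% of all genes. The median was 0.13, and 0.07 without control replicate 2. UHRF1, which recruits the maintenance methyltransferase, was at 249 and 221 CPM against 310 and 341 CPM (0.47, SE 0.15). HELLS, a remodeller needed for DNA methylation, was at 135 and 128 CPM against 154 and 169 CPM (0.30, SE 0.11). Of 52 cell cycle genes 18 had both knockdown libraries above both controls and 2 both below. Their median was 0.08, but -0.01 without knockdown replicate 2 and 0.17 without knockdown replicate 1, so it carries no direction. No member of either list passed with all libraries.

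Of the interferon and RNA sensing genes 13 could be tested, with a median of 0.29, or 0.17 without knockdown replicate 1 and 0.12 with the 14 hpf groups alone. Their lowest p belonged to irf1b, at 0.492 and 0.609 CPM against 3.66 and 2.60 CPM (2.45, SE 0.63). Heat shock and chaperone genes had a median of -0.01. Genes of the yolk syncytial layer and lipoproteins feed the embryo from the yolk. Of 28 tested, 21 were above 0 and 7 below, where 49.0% of all genes were below 0. In 10 both knockdown libraries were above both controls, against 21.9% of all genes. The median of this list was 0.22, or 0.04 without knockdown replicate 1. At an unadjusted p under 0.05 there were 3 lower members and none higher, against 3.43% and 2.24% of all genes.

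Signalling pathways showed few single differences. In the Nodal list, with 22 tested members and a median of 0.09 (-0.07 without control replicate 2), lft1 stood out; it encodes a secreted Nodal inhibitor and had 1.48 and 0.913 CPM in the controls and 5.39 and 5.02 CPM in the knockdown (2.11, SE 0.48). For a difference from the mean of the other times it had a low p that did not pass once adjusted (edgeR, unadjusted p = 0.00118). Its fold changes there were -0.42, -0.09 and 0.74 at 8, 11 and 18 hpf. In the retinoic acid list (28 tested, median -0.07) the genes of 2 degrading enzymes were higher: CYP26C1 at 66.6 and 74.9 CPM against 111 and 123 CPM (0.73, SE 0.43) and CYP26B1 at 26.3 and 31.3 CPM against 39.6 and 48.7 CPM (0.62, SE 0.28). CYP26C1 was called at 14 hpf alone.

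The medians of the BMP (-0.04, 37 tested), Wnt (0.08, 41) and FGF (0.10, 28) lists were near that of all genes. In the BMP list 4 members were lower at an unadjusted p under 0.05 and none higher, against 3.43% and 2.24% of all genes. Among neural crest genes (27 tested, median -0.04) FOXD3, an early crest regulator, was at 27.9 and 31.5 CPM against 49.5 and 48.7 CPM (0.73, SE 0.18), and SOX10, a later one, overlapped at 51.4 and 61.0 CPM against 43.7 and 57.0 CPM. Of the epidermal keratins, krt8 was at 1420 and 1680 CPM against 2050 and 2100 CPM (0.42, SE 0.13) and krt18a.1 at 1990 and 2140 CPM against 2740 and 2470 CPM (0.33, SE 0.10), while the epidermal list as a whole had a median of -0.07, or 0.08 without control replicate 2.

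Of 26 tested clock genes 18 were below 0 and 3 were lower and 1 higher at an unadjusted p under 0.05. The shares of all genes were 49.0%, 3.43% and 2.24%. The median of the clock list was -0.20, and 0.02 without control replicate 1. The cryptochrome gene cry3b was at 87.1 and 71.1 CPM in the controls and 49.8 and 47.5 CPM in the knockdown (-0.70, SE 0.17), and cry3a at 196 and 150 CPM against 258 and 226 CPM (0.48, SE 0.14). PER3 was at 11.6 and 6.24 CPM against 3.88 and 2.60 CPM (-1.47, SE 0.43). In each the groups did not overlap.

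List medians were set beside the change of the same lists in controls from 11 to 18 hpf. Lists were counted as declining or rising by the sign of their median control change alone. Of 21 declining lists, 13 had a median above 0 at 14 hpf and 8 below. Of 21 rising lists, 16 had a median below 0 and 5 above. Of the 42 medians 17 changed sign in at least 1 setting, so the tally includes medians without a firm direction. Among the declining lists the medians were 0.20 for 29 tailbud genes, 0.35 for 16 endoderm genes and 0.15 for 30 notochord and Hedgehog genes, where the control change had medians of -1.04, -1.15 and -0.27. These medians were 0.01, -0.06 and 0.03 without knockdown replicate 1, the library lowest on the stage index described below, and the tailbud and notochord medians were 0.07 and 0.01 without control replicate 2. Of their members, 7 tailbud, 4 endoderm and 8 notochord genes had both knockdown libraries above both controls, shares near the 21.9% of all genes. Declining lists on the other side included the pronephros, germ cell and segmentation clock genes. Their medians were -0.18, -0.03 and -0.08 and their control changes -0.81, -0.72 and -0.31. The germ cell median was 0.29 without knockdown replicate 2. For muscle, ribosomal protein and matrix genes, whose medians at 14 hpf were below 0, the control change was 4.29, 0.99 and 1.88. Rising lists on the other side included the SoxB and neural progenitor, glycolysis, and midbrain and hindbrain genes. Their medians were 0.09, 0.08 and 0.04 and their control changes 0.96, 0.66 and 0.43. The glycolysis median was -0.02 without knockdown replicate 1, and the midbrain and hindbrain median -0.1 without knockdown replicate 2. The DNA damage and apoptosis list had a median of 0.21. Its control change of 0.01 was near the 0.02 of all genes, so it counted as rising by sign alone. So did the proteasome list, with a control change of 0.005.

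**Figure D4:**
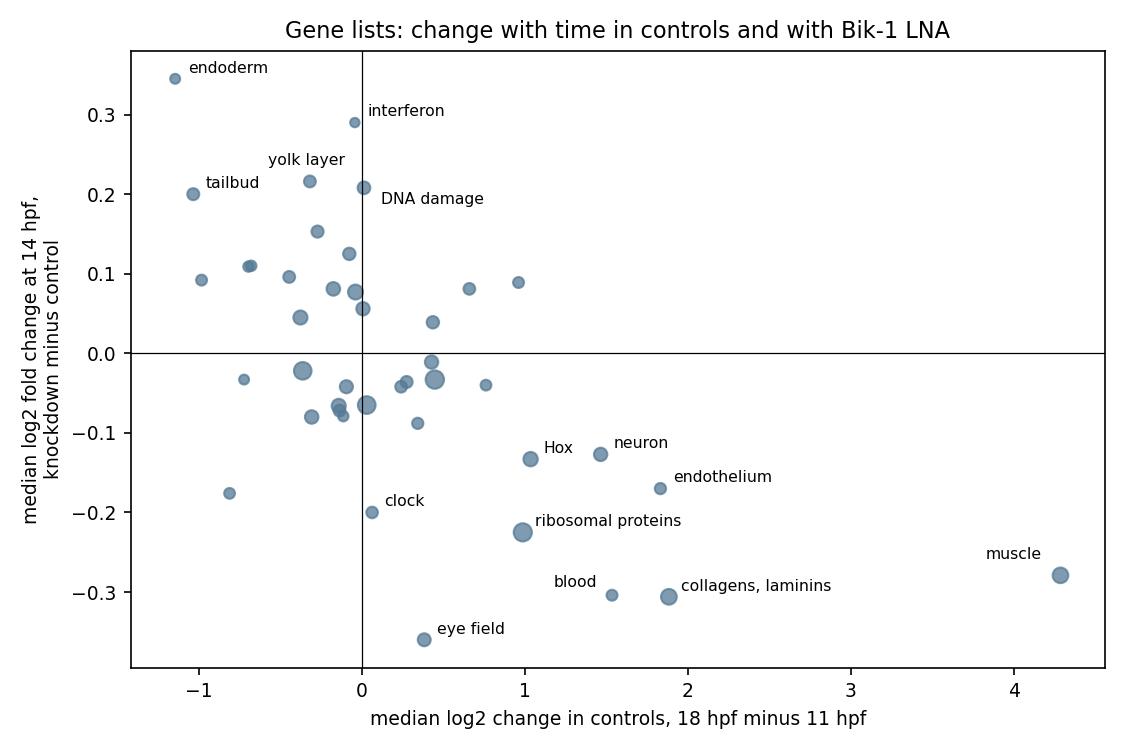
Median log2 fold change at 14 hpf (knockdown minus control) of each of 42 gene lists against the median log2 change of the same list in controls from 11 to 18 hpf; point area grows with the number of tested genes. Muscle, matrix, blood and ribosomal protein lists lie at the lower right, and tailbud and endoderm at the upper left; the eye field list lies lowest, at -0.36, with a control change of 0.38.

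The position of each library along the control time course was read from genes chosen without any 14 hpf library. In controls 2334 genes rose and 939 fell at least 2-fold from 11 to 18 hpf (edgeR, adjusted p under 0.05), and their mean log2 levels were scaled so that control means are 11 at 11 hpf and 18 at 18 hpf. On this stage index the 14 hpf controls stood at 13.45 and 13.83 hpf and the knockdown libraries at 12.42 and 13.16 hpf. Both knockdown libraries lay below both controls. The means were 13.64 ± 0.27 and 12.79 ± 0.53 hpf (SD, n = 2 each), a difference of -0.85 hpf. An exact two-sided permutation test gave p = 0.333, the smallest that 2 against 2 libraries can give. The difference was -0.48 hpf without knockdown replicate 1 and -1.22 hpf without knockdown replicate 2.

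The index was lower in both sets of genes. From rising genes alone the controls stood at 13.48 and 13.85 hpf and the knockdown at 12.43 and 13.10 hpf, and from falling genes alone at 13.41 and 13.80 against 12.39 and 13.24 hpf. Of the 2334 rising genes 1711 (73.3%) were lower in the knockdown at 14 hpf, with a median log2 fold change of -0.30. Of the 939 falling genes 686 (73.1%) were higher, with a median of 0.21. Of all 16894 genes 49.0% were lower and 8569 were higher, with a median of 0.01. At 18 hpf the knockdown libraries stood at 17.18 and 17.02 hpf against 17.95 and 18.05 hpf in the controls, and at 11 hpf the groups overlapped, at 11.50 and 10.47 against 11.29 and 10.71 hpf. Controls of 11 and 18 hpf set the scale, so only the knockdown values are not fixed at those times. The genes were also chosen on these controls, so any other 18 hpf library may fall short of 18 by that choice alone. The gap at 18 hpf is therefore no separate test of that at 14 hpf.

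**Figure D5:**
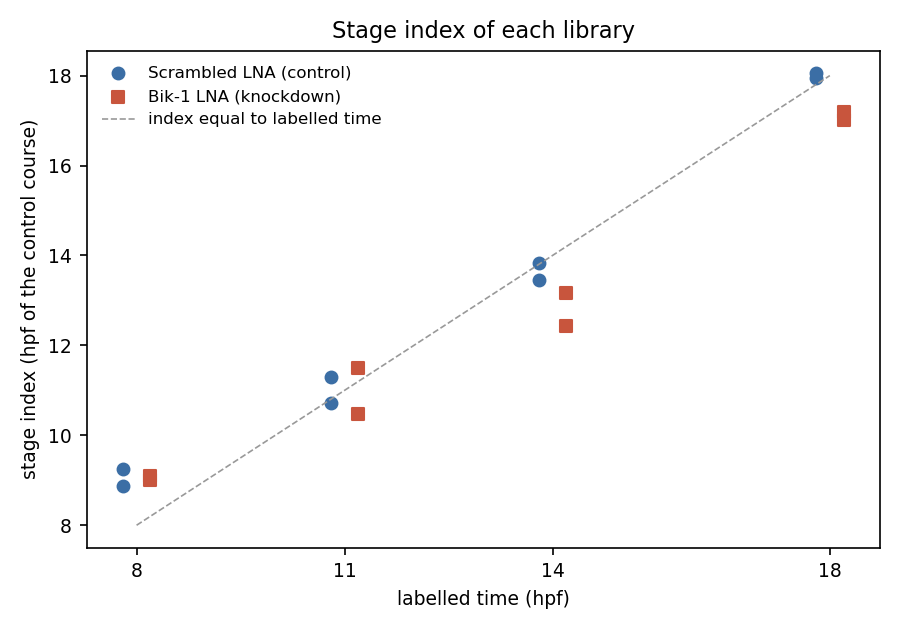
Stage index of each library in hpf of the control course against labelled time; circles are controls, squares are knockdown libraries, and the dashed line marks equality. Control means at 11 and 18 hpf are fixed by construction; at 14 hpf the knockdown libraries, at 12.42 and 13.16, lie below the controls, at 13.45 and 13.83.

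Among the genes called at 14 hpf alone, 15 of the 39 lower ones (38.5%) were rising genes of the control course, 2 (5.13%) falling ones and 22 (56.4%) neither; of all tested genes 13.8% were rising, 5.56% falling and 80.6% neither. Of the 16 higher ones 0 were rising, 4 (25.0%) falling and 12 neither. The lower genes outside both sets include LRBA, rsrc1, NTPCR and AGAP1, with control changes from 11 to 18 hpf of -0.41, -0.07, -0.03 and 0.84. The part of developmental stage in the differences at 14 hpf was not tested.

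The effect at 14 hpf was also compared with the mean effect at 8, 11 and 18 hpf, gene by gene. No gene passed (0 of 16894 by edgeR, and 0 by DESeq2), and 339 (2.01%) had an unadjusted p under 0.05, as did 11 families (1.28%), of which 0 passed. The list medians of the eye field were -0.61 at 8 hpf, -0.31 at 11 hpf and -0.27 at 18 hpf beside -0.36 at 14 hpf. Those of the ribosomal proteins were -0.05, -0.09 and -0.18 beside -0.23, and those of the matrix genes -0.31, -0.30 and -0.17 beside -0.31. For the muscle genes they were 0.00, -0.13 and -0.04 beside -0.28, and for the DNA damage and apoptosis list 0.14, 0.17 and 0.08 beside 0.21.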

How the data were processed

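The authors deposited raw read counts per Ensembl gene and per repeat family for each library. The submitters' processing notes name STAR and the build GRCz11; no source used here gives the counting program, its strand setting or its treatment of reads with several matches, so paralogs, overlapping genes and related families are uncertain. Gene names came from a table of identifiers, many in human style. Of 962 distinct list entries, 667 matched a symbol, 219 that symbol less the letter of the paralog, 26 a synonym in RefSeq (GRCz12tu, names only) and 50 none. The members and gene lists were chosen with earlier results of these data known. Some list members are counted but not reported by name here.

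Counts were fitted with edgeR 4.0.16 in R 4.3.3 (quasi-likelihood F-test, robust, TMM, filterByExpr) on all 16 libraries in 8 groups of 2, with 8 residual degrees of freedom. Features were called at an adjusted p under 0.05. The scripts were tested on simulated data. CPM is not divided by length and ranks no genes against each other. Most named genes have a mean of at least 1 CPM and were taken by the lowest p. This p was that at 14 hpf over all genes (at least 5 CPM), per list or per repeat family. It was also that under the replicate block or for a difference between times. Others are tissue markers, of which SOX17 lies below 1 CPM, and genes called at 14 hpf alone. A few, such as the PAX6 genes, cdkn1a and mdm2, were named outside these rules. Alternatives were DESeq2 1.42.0 and its size factors, no filter beyond 1 count, 14 hpf alone, a replicate block, a stricter 4-fold choice of stage genes and leaving out each library.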

Additional observations from a re-analysis of the deposited data

How the results depend on the processing

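BHIKHARI_LTR passed in every alternative run, with log2 fold changes of -2.06 to -2.01 and adjusted p-values of 3.8e-08 to 0.00035 when single libraries were left out. BHIKHARI_I-int kept its direction (-1.51 to -1.41 when single libraries were left out). At -1.46 it passed with the 14 hpf groups alone (adjusted p = 0.00059), without a filter (1.2e-18) and without either knockdown library of 11 hpf (0.025).

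Counts of called features depended on the processing. The 0 genes became 55 with 14 hpf alone, 10 by DESeq2, 144 without a filter, and 0 to 13 when single libraries were left out, the 13 without either knockdown library of 11 hpf. The 1 family became 5 with 14 hpf alone, 12 without a filter and 1 to 2 when single libraries were left out. The 0 genes that differed between 14 hpf and the other times became 3 without a filter. Size factors of DESeq2 changed none of these calls. A wider spread at 8 and 11 hpf accompanied the low counts (biological coefficient of variation 0.177 with all libraries, 0.112 with 14 hpf alone). With a replicate block within each time the coefficient was 0.0952. The ratio of chi-square to degrees of freedom between replicates was 9.08 to 31.4 at 8 and 11 hpf. It was 3.89 and 5.03 at 14 hpf and 4.57 and 4.23 at 18 hpf (controls, then knockdown). The cause was not tested.

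Same-numbered libraries deviated together at 8, 11 and 14 hpf (r = 0.45, 0.67 and 0.26) but not at 18 hpf (0.09), and the labels do not say what a number marks. With a replicate block within each time, 305 genes (1.81% of those tested; 197 lower, 108 higher), 9 families (1.04%) and 1 gene for the difference between times were called. With a replicate block over all times 1 gene was called. Of the 55 genes called at 14 hpf alone, 44 were among the 305.

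The stage index difference ran from -1.22 to -0.48 hpf without single 14 hpf libraries, and was -0.79 with the stricter choice of genes. By an alternative chosen after seeing the data, 1523 to 1827 of the 2334 rising genes were lower without single 14 hpf libraries. Of the 939 falling genes 537 to 719 were higher. With all libraries 49.0% of all genes were lower. Of 202 named genes and families, 5 changed sign when a single library was left out, all with overlapping groups. Their ranges were -0.04 to 0.88 for GATA6, -0.28 to 0.84 for foxa3, -0.01 to 0.42 for HSPA4 (ENSDARG00000004754), -0.33 to 1.12 for BHIKHARI-3-LTR_DR and -0.18 to 0.54 for pou5f3. Of 42 list medians, 17 changed sign in at least 1 setting, so medians near 0 carry no direction. The 14 hpf libraries held 4399855 to 6496272 counts each; detection by count level was not tested.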
